A study of Mus musculus with 9 samples.

Results

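The genes described here are 37 genes of mitosis and of the spindle checkpoint, from Cdk1 and its cyclins to the kinetochore, the condensins and the cytokinesis machinery. They were chosen by name, and a gene counts as found where its symbol stands in both deposited tables of E12.5 mouse retina. All 37 were found, of 12388 gene symbols in either table. Every one of the 37 has a summed value in each group. The genes were chosen with earlier results of these data known, so this says nothing about a filter on low values. Single transcripts of a member can be missing from a table.

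Mitosis is started by Cdk1 bound to A- and B-type cyclins, which the Cdc25 phosphatases switch on. Aurora and Polo kinases then build the spindle, condensins and topoisomerase II compact and untangle the chromosomes, and kinetochores tie the chromosomes to microtubules. The checkpoint kinases hold back Cdc20 and the anaphase-promoting complex until all kinetochores are attached, and cytokinesis ends the division. These RNAs are made mainly in G2 and M phase, so in a tissue they are carried by dividing cells. In the embryonic retina those are the progenitors, whereas ganglion cells and other newborn neurons have left the cycle.

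RNA came from retinas of CD-1 embryos at E12.5, taken as pairs of GFP-positive optic cups. All 9 samples carry GFP at a Neurog2 allele, a gene for a proneural transcription factor. The heterozygotes are Neurog2GFP/+, with the other allele intact. The mutants are Neurog2GFP/GFP, and the knock-in group is Neurog2GFP/Mash1KI, each with 3 samples, as have the heterozygotes. The labels name no cell sort, so each library is taken to hold the whole cup. Fewer cells of a type then cannot be told apart from less RNA per cell. Within a group each sample title ends in a different number, and the labels do not say whether these are separate embryos. Nothing in the labels ties the samples of a group to separate litters, and the test then covers only the spread among these libraries, which may be technical.

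Many of these genes share 2 short promoter words. The choice by name did not use them, but they were searched as known motifs of cell cycle promoters. High shares among genes chosen for mitosis are therefore not independent of that choice. The first is TTTGAA, the core of the cell cycle genes homology region (CHR), which the MuvB complexes bind to keep such genes silent outside G2 and M phase. The second is CCAAT, the box bound by NF-Y. Both were searched on both strands (TTTGAA or TTCAAA, and CCAAT or ATTGG), each on its own, so that matches of the 2 words may share bases, from 250 bases before to 50 after each RefSeq start on GRCm38.p6. Of the 37 genes 31 had an entry, with 33 promoters. Of these 33 promoters, 25 (75.8%) held the CHR word, against 17.9% of all 32851 promoters, and 27 (81.8%) held the CCAAT word, against 37.4%. The CCAAT word was also in 52.8% of the promoters of a DNA replication list, 60.7% of those of other mitosis genes and 72.7% of the 11 promoters of retinal neuron genes. Both words stood together in 69.7% of the 33 and in 6.95% of all. In the 53 promoters of a DNA replication list the CHR word was found in 15.1%, and in the 112 promoters of a list of other mitosis genes in 36.6%. The E2F word TTTCCCGC (or GCGGGAAA), a site type of S phase genes, was in none of the 33, in 15.1% of the DNA replication promoters and in 1.07% of all. Birc5, Nuf2, Nusap1 and Ncaph held neither the CHR nor the CCAAT word. The words are matches of letters only, and the promoters were not assayed here. The members with no entry are Ccna2, Cdc25c, Aurkb, Incenp, Tpx2 and Smc4.

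The stretches below are the 100 bases just before the start of 5 members that carry the CHR word there, read 5′ to 3′ on the strand of the gene, with CHR and CCAAT words of either strand in capitals. They lie at chr10:69352913-69353012 (Cdk1, minus strand), chr4:118437344-118437443 (Cdc20, minus), chr2:164769829-164769928 (Ube2c, plus), chr11:99024190-99024289 (Top2a, minus) and chr17:24251410-24251509 (Ccnf, minus).
Cdk1: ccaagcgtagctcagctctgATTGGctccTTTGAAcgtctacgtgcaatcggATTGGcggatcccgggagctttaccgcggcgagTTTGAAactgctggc
Cdc20: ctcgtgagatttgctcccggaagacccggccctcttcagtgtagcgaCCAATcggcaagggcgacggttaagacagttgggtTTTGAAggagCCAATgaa
Ube2c: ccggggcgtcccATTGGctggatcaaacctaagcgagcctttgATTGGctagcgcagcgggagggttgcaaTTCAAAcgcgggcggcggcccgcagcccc
Top2a: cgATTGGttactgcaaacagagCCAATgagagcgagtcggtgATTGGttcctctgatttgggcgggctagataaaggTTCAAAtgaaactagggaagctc
Ccnf: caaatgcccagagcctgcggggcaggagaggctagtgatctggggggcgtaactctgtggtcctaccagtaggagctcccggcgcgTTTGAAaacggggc
In these stretches Cdk1 holds the CHR word 2 times and the other members 1 time each. Ccnf has no CCAAT word in the stretch shown, while Top2a has 3 and Cdk1, Cdc20 and Ube2c have 2 each.

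The files give 1 RPKM value per transcript and group (reads scaled to transcript length and to library size), with no value per sample, so no spread between samples can be printed and the depth is unknown. A gene's level is the sum over its listed transcripts. The tests are those of the authors' deposited tables, made by Cuffdiff, and a call is a q of 0.05 or less over the whole table. The retinal progenitor marker Pax6 was present in each group, at 327, 339 and 291 RPKM in heterozygotes, mutants and knock-in retinas. Neurog2 was at 30.2 RPKM in the heterozygotes and 36.2 RPKM in the mutants (q = 0.993 in the authors' deposited table), and at 112 RPKM in the knock-in group against 35.5 RPKM in the mutants of the second table (q = 0.0104). The tables do not separate its coding part from its untranslated part. Because it was not lower in the mutants, the groups are called mutant-labelled and knock-in-labelled below. Sex also differed: Xist was at 184, 505 and 174 RPKM in the heterozygote, mutant-labelled and knock-in-labelled groups, and no RNA of the Y-linked Kdm5d was listed for the mutants (0 RPKM, against 12.8 RPKM in the heterozygotes). The part of sex in the values below was not tested. The sample titles also carry 1 shared number for the heterozygotes and mutants and another for the knock-in group, and the labels do not say what it marks. If it is a litter or batch, it cannot be told apart from the knock-in label.

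The 37 genes were abundant in the heterozygote retina, as the plot of levels by role shows. Their summed levels ran from 10.4 RPKM for Cdc25b to 468 RPKM for Racgap1. The Racgap1 value rests on 1 transcript, without which it was 48.4 RPKM, and the table gives neither the length nor the structure of that transcript. The median gene of the first table was at 13.9 RPKM. Of the 37, 36 were above that median, 30 were at or above percentile 75 of all genes and 14 at or above percentile 90. After Racgap1, the highest levels were those of Ube2c (400 RPKM), the ubiquitin-conjugating enzyme of the anaphase-promoting complex, Cdk1 (243 RPKM) and Top2a (225 RPKM), the topoisomerase of mitotic chromosomes. The lowest after Cdc25b were those of Cdc25c (17.6 RPKM) and Ccnf (18.6 RPKM). RPKM is scaled to length, but no length or structure is given for any transcript. The order of genes with several transcripts thus depends on how reads were split among them, as for Racgap1, whose main transcript is not identified.

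**Figure D1:**
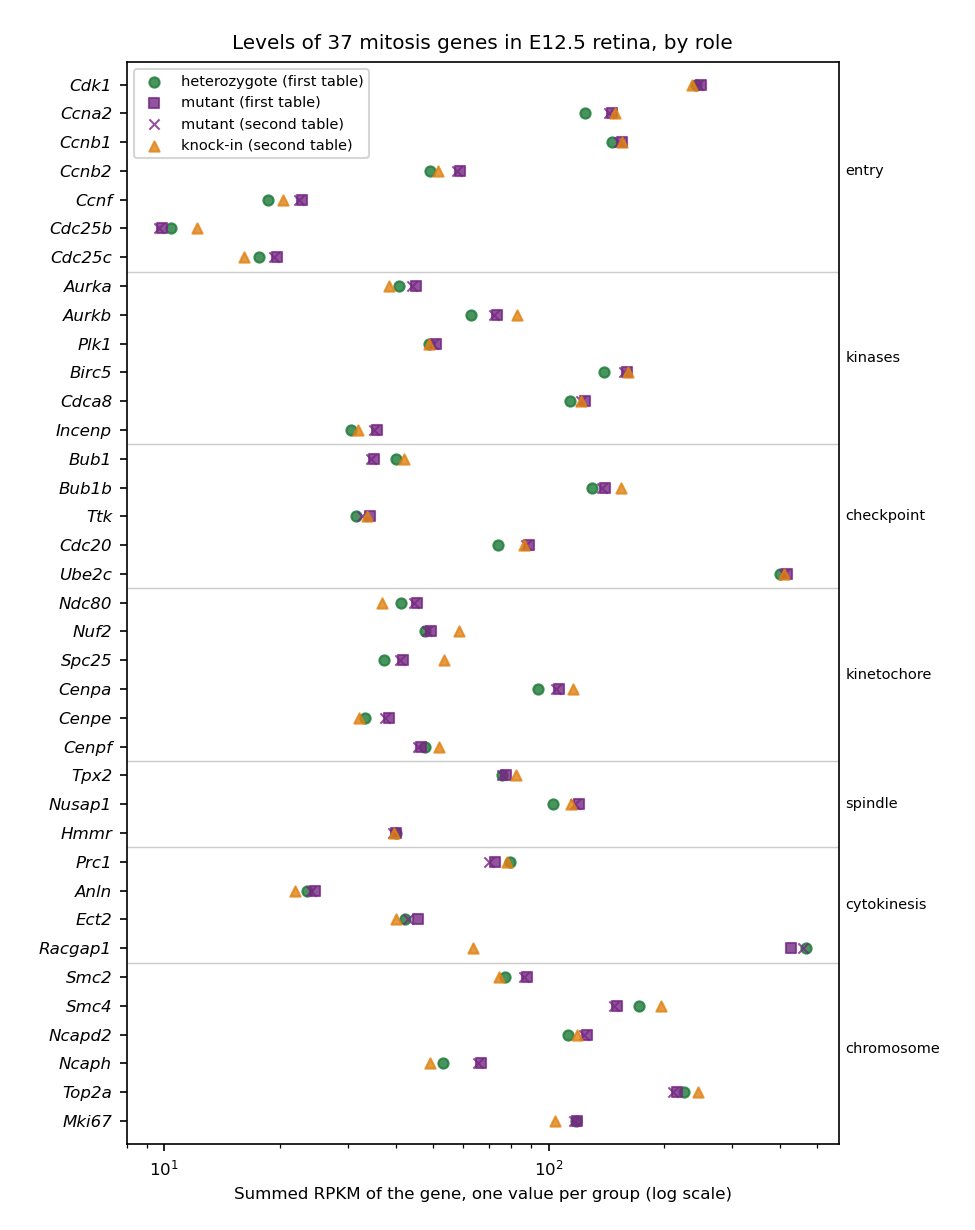
Summed RPKM (horizontal axis, log scale) of each of the 37 mitosis genes (rows, grouped by role) as 1 value per group: circles are heterozygotes, squares and crosses the mutant-labelled group in the first and the second table, triangles the knock-in-labelled group. The 4 symbols of a gene lie close together in every row but that of Racgap1, whose triangle is at 63.5 RPKM and whose other symbols are above 400 RPKM.

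The first question is what follows for these genes when the remaining intact Neurog2 allele also carries GFP. None of the 37 mitosis genes was called higher or lower, where 1.34% of 12247 genes were called in either direction (0.245% higher and 1.09% lower). At a looser q of 0.1 or less the count was still 0, beside 1.69% of genes. Most of them had slightly higher values in the mutant-labelled group: 30 of 37 against 54.7% of all genes with a finite ratio, with 7 lower against 45.3%. Of the 30, Tpx2, Hmmr and Mki67 turn lower when ratios are centred on the median of all genes. The median log2 ratio was 0.12, beside 0.031 over all genes, and 0.069 with only the most abundant transcript of each gene. The range of the summed ratios was narrow, from -0.19 for Bub1 to 0.33 for Ncaph. In all, 36 of the 37 lay within 0.3 of 0 on the log2 scale, where 70.2% of all genes did. Of the other mitosis genes 87.5% did. The median member was at percentile 86.7 of all genes by level, and genes of equal level were not compared. At an unadjusted p under 0.05 there were 2 members, Aurka and Nuf2, against 10.9% of genes, each through 1 transcript. Summed over the list, the level was 3610 RPKM in the heterozygotes and 3768 RPKM in the mutant-labelled group.

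The second question is what differs for these genes between retinas labelled as knock-in and as mutant, neither of which has an intact Neurog2 allele by its label. Of the 37 genes 1 was called, Racgap1, through a transcript that fell, where 1.67% of 11989 genes were called (1.03% higher and 0.634% lower). At a q of 0.1 or less it was still 1, beside 2.54% of genes. The 37 genes lay on both sides of 0: 18 of 37 were higher, beside 49.7% of all genes, and 19 lower, beside 50.3%, and the median log2 ratio was -0.0033, beside -0.0021 over all genes. Without Racgap1 the range was from -0.41 for Ncaph to 0.41 for Smc4. Within 0.3 of 0 lay 32 members, against 66.3% of genes and 78.3% of the other mitosis genes. At an unadjusted p under 0.05 there were 3 members, Racgap1, Bub1 and Ncaph, against 14.6% of genes. Summed over the list without Racgap1, the level was 3275 RPKM in the mutant-labelled and 3364 RPKM under the knock-in label.

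The error of the test was read from the 11 members with a single transcript in both tables. They are Ccnb2, Ccnf, Cdc25c, Plk1, Cdca8, Incenp, Ube2c, Ndc80, Hmmr, Anln and Mki67. Their reads are not split among several transcripts of the same gene. The loci of Cdca8 and, in the first table, Ccnf also hold another gene symbol. Dividing the log2 ratio by the deposited test statistic gave an error of 0.25 to 0.30 for these genes in the first comparison, and dividing it by the normal quantile of the deposited p gave 0.13 to 0.18. The error was larger for many transcripts of the other members. From the test statistic, that of the main transcript was 0.82 for Bub1b and 0.28 for Birc5 in the first comparison. The intervals below thus do not hold for the other members. A call also needs a smaller p than a 95% interval that leaves out 0. All 11 had a higher value in the mutant-labelled group (52.7% of all single-transcript genes did), by 0.00063 for Hmmr to 0.29 for Ccnf. The 95% intervals from the larger error all held 0 and together ran from -0.58 to 0.82. From the smaller error, the one tied to the p behind the calls, they ran from -0.34 to 0.60 and also held 0. In the second comparison 9 of the 11 were lower and 2 higher (51% of all single-transcript genes were higher). The intervals ran from -0.81 to 0.50 with the larger error and from -0.57 to 0.31 with the smaller one, and again held 0. The lack of calls therefore does not show equal levels.

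**Figure D2:**
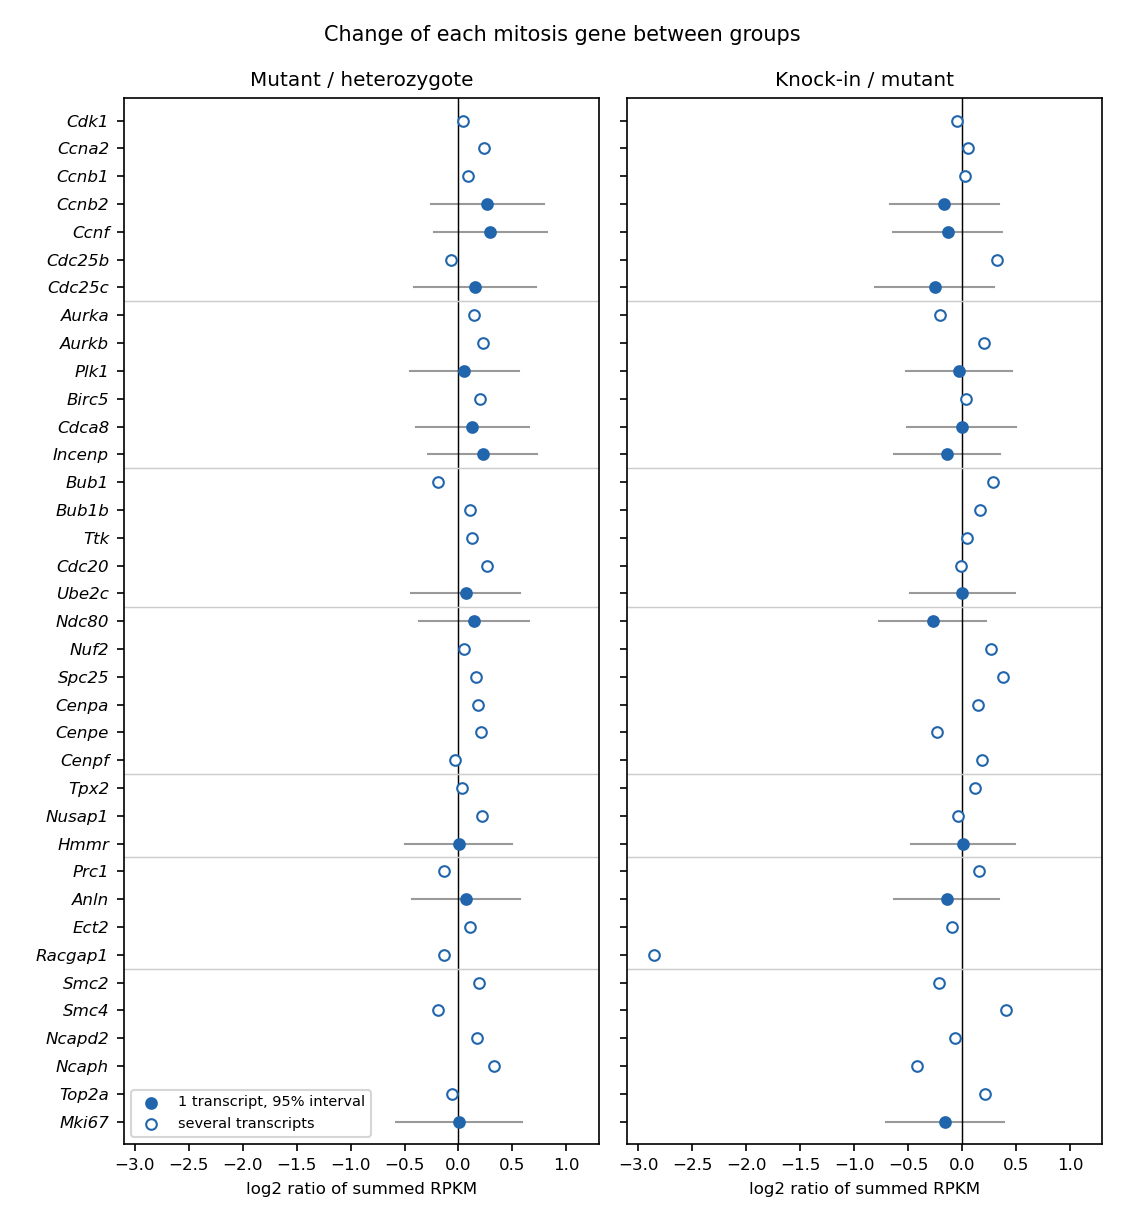
Log2 ratio of summed RPKM (horizontal axis) for each of the 37 genes (rows, in the same order of roles) for mutant-labelled over heterozygote (left) and knock-in-labelled over mutant-labelled retinas (right); filled points are the 11 genes with 1 transcript, with a 95% interval from the ratio divided by the deposited test statistic, and open points are genes with several transcripts. Points on the left lie mostly just right of 0, between -0.19 and 0.33, and on the right Racgap1 stands alone at -2.85. Intervals from the deposited p are narrower and are not drawn.

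Among the genes of mitotic entry, Cdk1, the kinase itself, had 243 RPKM in the heterozygotes and 249 RPKM in the mutant-labelled group, and then 244 RPKM (mutant-labelled) and 236 RPKM (knock-in-labelled) in the second table. Pairs of values below keep this order, first table before second. Its cyclin partner Ccnb1 was at 146 and 156 RPKM, then at 153 and 155 RPKM. Ccnb2, the other B-type cyclin, was at 49.0 and 58.9 RPKM, then at 57.8 and 51.6 RPKM. For these 3 genes the largest log2 ratio was thus 0.27, for Ccnb2 in the first comparison. Ccna2, which acts in S phase and in G2, was at 124 and 146 RPKM, then at 144 and 149 RPKM. Ccnf, an F-box cyclin that marks proteins for breakdown, was at 18.6 and 22.8 RPKM (log2 ratio 0.29, p = 0.0565, q = 0.993 in the authors' deposited table), then at 22.4 and 20.4 RPKM. Its unadjusted p was the lowest of any single-transcript member in either comparison. Of the Cdc25 phosphatases, Cdc25b was at 10.4 and 9.88 RPKM, then at 9.69 and 12.1 RPKM, and Cdc25c at 17.6 and 19.6, then at 19.3 and 16.2 RPKM. The ratios of the pair had opposite signs in each comparison, and neither gene passed the test. The 7 genes had median log2 ratios of 0.15 and -0.049.

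All 6 mitotic kinases and chromosomal passenger genes had higher values in the mutant-labelled than in the heterozygote group, with a median of 0.17, and 4 of 6 had lower values in the second comparison, with a median of -0.016. Birc5 (survivin, which targets the passenger complex) was at 139 and 160 RPKM, then at 157 and 161 RPKM. Cdca8 (borealin, of the same complex) was at 114 and 124 RPKM, then at 122 and 122 RPKM. The kinase of that complex, Aurkb, was higher by 0.23 and again by 0.20 on the log2 scale, at 62.9 and 73.6, then at 72.2 and 82.9 RPKM. Its scaffold Incenp was at 30.6 and 35.8 RPKM, then at 35.1 and 31.9 RPKM. The Aurkb ratios depend on minor transcripts: its most abundant transcript alone had 0.045 and then -0.14, which turns the direction in the second comparison. Neither Aurkb nor Incenp passed the test. Plk1, the Polo kinase, stayed within 0.055 on the log2 scale, with 49.0 and 50.9 RPKM and then 49.9 and 48.9 RPKM. Aurka, the kinase of the spindle poles, was at 40.9 and 45.1 RPKM, then at 44.2 and 38.5 RPKM. A minor Aurka transcript had the lowest unadjusted p of the members in the first comparison, at 3.56 and 9.37 RPKM (p = 0.0082, q = 0.423 in the authors' deposited table), while another was at 6.43 and 1.53 RPKM. The 2 differences have opposite signs, and the summed Aurka level differed by 0.14 on the log2 scale.

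Among the checkpoint genes and those of the complex it holds back, Ube2c had 1 transcript and the steadiest level, at 400 and 418 RPKM, then at 410 and 411 RPKM. Cdc20, the activator that the checkpoint restrains, was at 73.9 and 88.8 RPKM (log2 ratio 0.26), then at 87.1 and 86.4 RPKM. Bub1b, the checkpoint protein BubR1, was at 130 and 140 RPKM, then at 138 and 154 RPKM. Neither gene was called. The kinase Ttk (Mps1), which starts checkpoint signalling, was at 31.6 and 34.4 RPKM, then at 32.7 and 33.7 RPKM. Bub1, the kinase of the kinetochore, was the exception in direction in the first comparison, at 40.1 and 35.1 RPKM. It was then at 34.4 and 42.0 RPKM, a log2 ratio of 0.29. Its main transcript was at 30.0 and 39.0 RPKM there, with p = 0.0140 and q = 0.402 in the authors' deposited table.

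The kinetochore genes had a median log2 ratio of 0.15 in the first and 0.16 in the second comparison. In the Ndc80 complex, which grips the microtubule, the subunits did not share a direction in the second comparison. Ndc80 was at 44.5 and 36.9 RPKM (log2 ratio -0.27, p = 0.0602, q = 0.756 in the authors' deposited table), whereas Nuf2 was at 48.4 and 58.4 RPKM and Spc25 at 41.1 and 53.3 RPKM. In the first comparison the 3 were at 41.2 and 45.4 RPKM, 47.8 and 49.3 RPKM, and 37.4 and 41.8 RPKM. For Nuf2, 2 transcripts had opposite signs there. A minor one was at 8.55 and 16.4 RPKM (p = 0.0179, q = 0.632 in the authors' deposited table) and the main one at 32.7 and 24.01 RPKM. Of the centromere proteins, Cenpa, the histone variant that marks the centromere, was at 93.7 and 106 RPKM, then at 104 and 116 RPKM. Cenpe, a kinesin of the kinetochore, was at 33.2 and 38.4, then at 37.6 and 32.1 RPKM, and the large protein gene Cenpf at 47.5 and 46.5, then at 45.6 and 51.8 RPKM. None of the 6 was called.

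The 3 spindle genes had median log2 ratios of 0.029 and 0.0085. Tpx2, which activates Aurora A on the spindle, was at 75.7 and 77.3 RPKM, then at 75.8 and 82.5 RPKM. Nusap1, which bundles microtubules, was at 103 and 120 RPKM, then at 117 and 114 RPKM. Hmmr had a log2 ratio of 0.00063 and then of 0.0085, with 40.02 and 40.04 RPKM in the first table and 39.3 and 39.5 RPKM in the second. Of the cytokinesis genes, Prc1, which bundles the microtubules of the midzone, was at 79.6 and 72.4 RPKM, then at 70.0 and 78.1 RPKM. Ect2, the exchange factor that activates RhoA at the cleavage furrow, was at 42.4 and 45.8 RPKM, then at 43.0 and 40.1 RPKM, and Anln (anillin, of the contractile ring) at 23.5 and 24.6, then at 24.2 and 21.8 RPKM. These values differ by at most 0.22 on the log2 scale, reached by Nusap1, and none passed the test.

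The condensin subunits did not share a direction. Ncaph, of condensin I, had the largest positive ratio of the 37 genes in the first comparison (53.1 and 66.8 RPKM, log2 ratio 0.33) and, after Racgap1, the lowest in the second (65.5 and 49.2 RPKM, log2 ratio -0.41). A transcript of it at 24.1 and 14.0 RPKM had p = 0.0381 and q = 0.647 in the authors' deposited table. The most abundant Ncaph transcript of the first table, at 26.7 and 24.2 RPKM, did not share the sign of the sum. Ncapd2, another subunit of condensin I, was at 112 and 126 RPKM, then at 124 and 118 RPKM. The 2 core ATPases had opposite signs in both comparisons: Smc2 was at 77.0 and 88.0 RPKM, then at 86.3 and 74.5 RPKM, and Smc4 at 172 and 151 RPKM, then at 148 and 196 RPKM. For Smc4 the difference sat in its largest transcript, at 69.8 and 45.0 RPKM and then at 44.2 and 95.8 RPKM (p = 0.173, q = 0.783 in the authors' deposited table). The other Smc4 transcripts together were at 102 and 106 RPKM, then at 104 and 100.3 RPKM. Top2a was at 225 and 215 RPKM, then at 211 and 245 RPKM. Mki67, whose protein coats mitotic chromosomes and is the usual marker of cycling cells, was at 118 and 118 RPKM, then at 116 and 104 RPKM. The 95% intervals of its log2 ratio were -0.58 to 0.59 and -0.70 to 0.39 from the larger error. They were -0.34 to 0.35 and -0.47 to 0.15 from the smaller one.

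Racgap1, the GTPase-activating part of centralspindlin, which gathers at the midzone and guides the cleavage furrow, was the member with a call. It lies at chr15:99620496-99651656 on mm10, and GENCODE annotates 14 transcripts there, from 374 to 4475 bases of exon, 5 of them protein-coding. In the second table a transcript fell from 24.9 to 8.09 RPKM, by 1.62 on the log2 scale, with q = 0.0104 in the authors' deposited table. Racgap1 as a whole differed more, from 459 to 63.5 RPKM in summed level (log2 ratio -2.85), but this rests on another transcript. That transcript made up 85.5% of the mutant-labelled sum, at 393 RPKM, and was listed at 0 for the knock-in label (p = 0.110, q = 0.783 in the authors' deposited table), so it did not pass the test. Without it the other 5 transcripts together were at 66.3 and 63.5 RPKM, a log2 ratio of -0.063. Beside the called transcript, the main one of these was at 41.1 and 36.9 RPKM, and another was at 0.000521 and 11.5 RPKM.

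**Figure D3:**
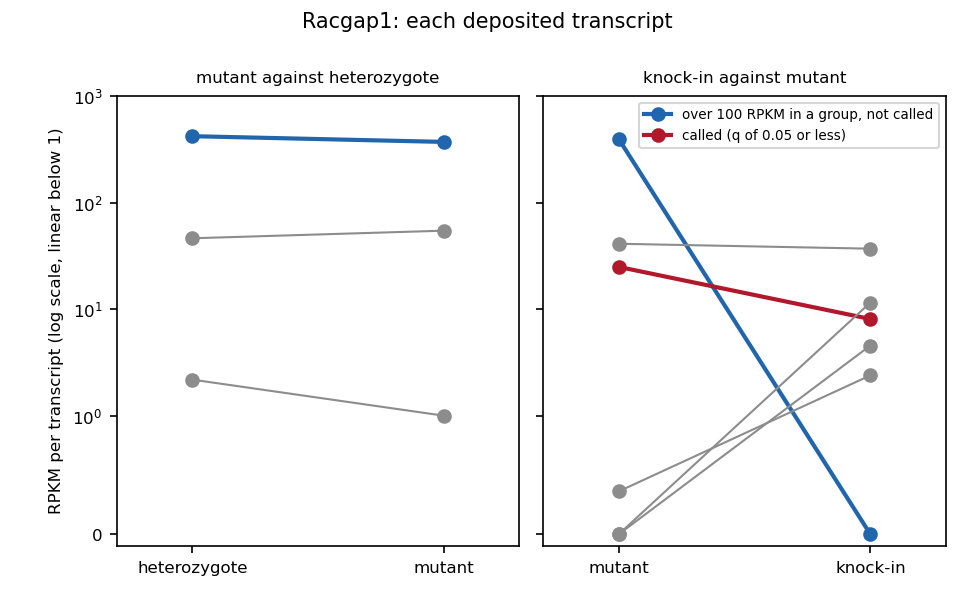
RPKM (vertical axis, log scale, linear below 1) of each deposited Racgap1 transcript in the 2 groups of each table; lines join the 2 values of a transcript, the red line is the called one and the blue line the one above 100 RPKM. The blue line is nearly level on the left, from 420 to 371 RPKM, and drops from 393 RPKM to 0 on the right, while the red one falls from 24.9 to 8.09 RPKM.

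In the first table Racgap1 had 3 transcripts, at 420 and 371 RPKM, 46.2 and 54.5 RPKM, and 2.18 and 1.001 RPKM in heterozygotes and mutant-labelled retinas. None was called. The first made up 89.7% of the heterozygote sum, and without it Racgap1 was at 48.4 and 55.5 RPKM. No transcript of the first table had a mutant-labelled value near 24.9 RPKM, so the called transcript has no counterpart that can be followed across the 3 groups. The mutant-labelled sums of the 2 tables differed by 0.11 on the log2 scale for Racgap1, the largest such difference upward among the 37. For 34 of the 37 genes the mutant-labelled sums lay within 0.03 of the median offset of -0.028 between the tables, and 101 of 109 transcripts of the first table had a counterpart with such a value in the second.

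Transcripts of the same gene often had opposite signs among the other members too. The 37 genes have 109 transcripts in the first and 112 in the second table, and 26 genes have several. In 21 of these 26 at least 1 transcript was higher and another lower in the mutant-labelled group, beside 74.4% of all genes with several transcripts. In the second comparison it was 23 of 26, beside 76.8%. Some transcripts were listed at 0 in a group, 6 in the first table and 11 in the second, with p between 0.110 and 0.244 in the authors' deposited tables. Ccna2 is an example: a transcript listed at 0 in the heterozygotes was at 18.0 RPKM in the mutant-labelled group, and 1 with 17.6 RPKM there was listed at 0 for the knock-in label. Its main transcript was at 124 and 125 RPKM, then at 123 and 149 RPKM. With the most abundant transcript alone, the sign of the ratio turned for Ttk (-0.061), Nuf2 (-0.45), Cenpe (-0.039) and Ncaph (-0.14) in the first comparison, and for Ccnb1 (-0.12), Aurkb (-0.14) and Tpx2 (-0.24) in the second. In the first comparison 1.83% of the members' transcripts (2 of 109) had an unadjusted p under 0.05, where 5.18% of all transcripts did. In the second it was 2.68% (3 of 112), where 7% did. Loci of 6 members in the first table and 5 in the second also hold another gene symbol, Cdc25b with 3 others.

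A wider list of 120 other mitosis genes, all of them measured in both tables, is given beside the 37, and the difference between the lists was not tested. In the first comparison 83 of the 120 had higher and 37 lower values, beside 54.7% and 45.3% of all genes. The median log2 ratio was 0.082 and none was called, beside 1.34% of all genes. In the second 51 were higher and 69 lower, beside 49.7% and 50.3% of all genes. The median was -0.071, and 1 was called, beside 1.67% of all genes. This was Cenpn, a centromere protein that recognises Cenpa nucleosomes, with a fall from 26.6 RPKM to 17.5 RPKM and a deposited q of 0.0320 by the authors' deposited table. At an unadjusted p under 0.05 there were 8 and 19 of the 120 genes, beside 10.9% and 14.6% of all genes. Cenpn was at 23.5 and 27.1 RPKM in the first comparison. Spc24, the partner of Spc25 in the Ndc80 complex, had the largest ratio of the other kinetochore genes there, at 28.2 and 41.7 RPKM (log2 ratio 0.56), and missed the threshold with q = 0.0933 in the authors' deposited table. The largest positive ratio among the other spindle genes was that of Haus5, an augmin subunit, at 19.3 and 30.5 RPKM, and its value in the second comparison, 29.9 and 16.7 RPKM, was the lowest of them. Neither difference passed the test. The kinesin Kifc1 had the lowest ratio of the 12 other kinesins in the first comparison and the highest in the second, at 1.37 and 0.797 RPKM, then at 1.32 and 2.38 RPKM, also without a call. The other highest ratios of the 6 sublists in the first comparison were those of Kif15 (0.28), Cdc16 (0.39), Ncaph2 (0.41) and Mybl2 (0.33). The lowest were those of Kntc1 (-0.46), Wapal (-0.46), Ncapg (-0.31), Pbk (-0.23) and Haus6 (-0.31). In the second comparison Sgol1 (0.41), Ube2s (0.41), Ncapg (0.31), Mastl (0.56) and Fam64a (0.34) were highest, and Kif14 (-0.44), Anapc13 (-0.66), Ncapd3 (-0.28) and Lin9 (-0.77) lowest. These are log2 ratios of summed RPKM, and none of these genes was called.

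The list of DNA replication genes, which act in S phase, differed from the 37 in the size of its median, and the difference was not tested. Its 51 measured genes had a median log2 ratio of 0.23 in the first comparison, with 43 higher, where 54.7% of all genes were. In the second the median was -0.15, with 41 lower, where 50.3% of all genes were. For the mitosis genes the medians were 0.12 and -0.0033. Geminin (Gmnn), which blocks relicensing of origins until mitosis, was the 1 call of this list, where 1.34% of all genes were called. Gmnn rose from 47.4 RPKM to 71.7 RPKM (deposited q of 0.0286 in the authors' deposited table), and it was then at 70.3 and 50.3 RPKM without a call. The 14 D cyclin and cell cycle exit genes had medians of -0.0037 and 0.16. Their calls were the antiproliferative genes Btg2, which fell to 40.9 RPKM in mutant-labelled retinas from 63.4 RPKM in heterozygotes, and Tob1, which fell to 18.3 RPKM under the knock-in label from 26.5 RPKM (q = 0.0463 in the authors' deposited table). In the D cyclin list the highest grey point is Ccnd2, at 11.7 and 73.1 RPKM in the second table, not called and singled out after its values were seen. None of these is among the 37.

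**Figure D4:**
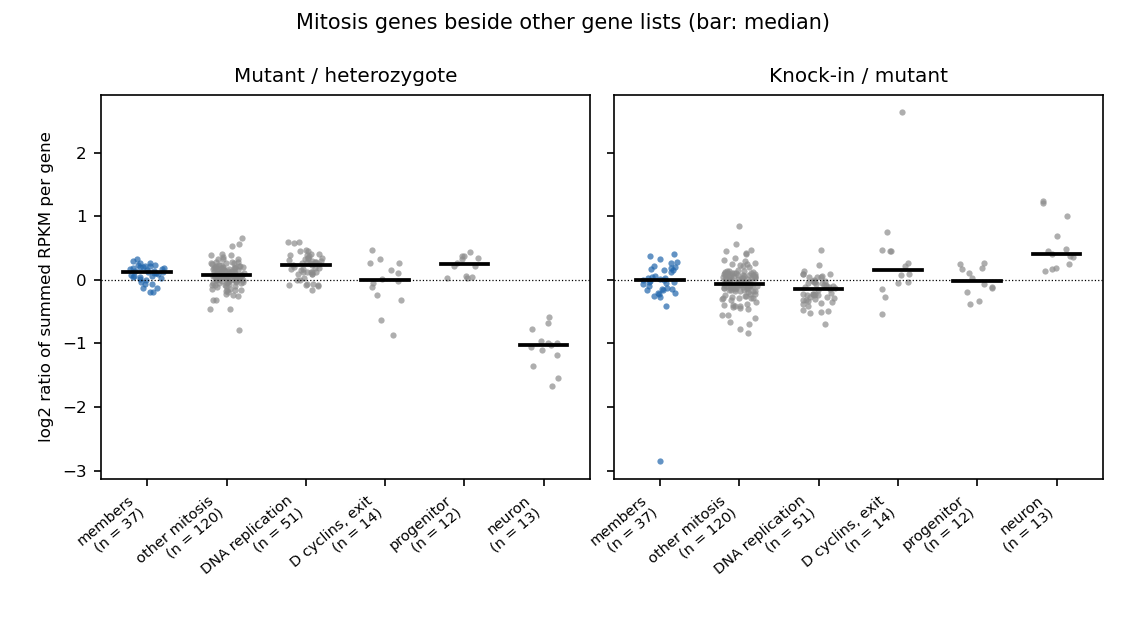
Log2 ratio of summed RPKM per gene (vertical axis, 1 point per gene, with sideways scatter only to separate points) for the 37 mitosis genes (blue) and 5 other lists (grey) for mutant-labelled over heterozygote (left) and knock-in-labelled over mutant-labelled retinas (right); black bars are medians. The mitosis genes sit at medians of 0.12 and -0.0033, the neuron markers at -1.03 and 0.40.

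Markers of other cells moved with the groups, and their part in the mitosis values was not tested. All 12 retinal progenitor markers had higher values in the mutant-labelled than in the heterozygote group, with a summed level of 2250 and 2714 RPKM and no call. All 13 measured neuron markers had lower ones, at 994 and 488 RPKM in sum, and 9 were called, where 1.34% of all genes were. In the second comparison the progenitor markers summed to 2663 and 2547 RPKM, with 6 of 12 higher and 0 called. The neuron markers summed to 479 and 651 RPKM, with 13 of 13 higher and 2 called. Of all genes 49.7% were higher and 1.67% were called there. The mitosis genes without Racgap1 summed to 3142 and 3342 RPKM in the first comparison, a log2 ratio of 0.089, and to 3275 and 3364 RPKM in the second, a log2 ratio of 0.039. Markers of other tissues had no call in the first comparison. There pigment epithelium summed to 19.6 and 22.7 RPKM, lens to 80.0 and 52.3 RPKM, blood to 30.8 and 34.8 RPKM and mesenchyme to 19.5 and 18.1 RPKM. In the second comparison, where 1.67% of all genes were called, the sums of these markers differed more. Those of pigment epithelium summed to 24.7 and 116 RPKM (11 listed, 7 called) and of lens to 53.7 and 167 RPKM (13 listed, 3 called). Those of blood summed to 35.1 and 131 RPKM (7 listed, 2 called) and of mesenchyme to 19.4 and 33.4 RPKM (6 listed, 2 called). Each transcript listed there had at least 1.04 RPKM in its higher group. A gene near 0 under the mutant label was thus listed only where its knock-in-labelled value was high, which fixed its direction. Of 12 pigment epithelium markers, 5 were listed in the first table and 11 in the second. Immediate early and stress genes summed to 180 and 49.6 RPKM, with 9 of 9 lower, beside 50.3% of all genes. Of these 9 genes 8 were called lower, where 0.634% of all genes were. The 3 measured markers of endothelium and macrophages summed to 34.2 and 27.6 RPKM, with 0 of 3 higher and 0 called. Foxe3, a lens marker, had 0 RPKM under the mutant label in the second table, and no other marker of these lists was at 0 in the second table.

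The mutant-labelled samples are shared by both comparisons, so the signs of the 2 ratios are linked through them and are given side by side only. Of the 37 genes, 18 were higher and then lower, 12 higher in both, 6 lower and then higher, and 1, Racgap1, lower in both. The same pairs of signs were not counted over all genes, so these counts cannot be set against a background. Set across the separately normalized tables, the heterozygote and knock-in-labelled values were 118 and 104 RPKM for Mki67, 400 and 411 RPKM for Ube2c, 49.0 and 48.9 RPKM for Plk1 and 37.4 and 53.3 RPKM for Spc25. These genes are examples not chosen by a stated rule, and the offset between the tables was not applied. No test links these 2 groups in the deposited tables.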

How the data were processed

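RNA was sequenced from 9 retina samples of 3 genotypes, grouped by labelled genotype. The submitters' processing notes name mm10 and the tools Bowtie2, Cufflinks and Cuffdiff, without their versions. Per the file headers, the authors deposited for each of 2 comparisons 1 RPKM value per transcript and group, the log2 fold change, a test statistic (a score without fixed range) and p-values and q-values; replicates were pooled by the authors, so depth and spread per sample are unknown. The tables hold 27311 and 26586 transcripts. RPKM was summed per gene symbol and log2 ratios taken without a pseudocount; 173 and 172 transcripts with no usable symbol stayed out of gene values. The deposited q equalled a Benjamini-Hochberg adjustment over each table to within 5.26e-07, computed with Python 3.11.15, pandas 2.3.3 and scipy 1.17.1. The adjustment and the sums were tested on simulated data. A gene is called where any transcript has q of 0.05 or less. The 37 genes and all lists were chosen with earlier results of these data known.

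All 37 genes may be named. In full are given the 2 most abundant of each role, the 4 highest and 4 lowest ratios per comparison and members with p under 0.05; of the sublists of other mitosis genes, the highest and lowest ratio and any call; of the remaining lists, calls. Marker lists are given by counts and sums. Alternatives were a q of 0.1, an unadjusted p, filters at 1 and 5 RPKM, a pseudocount of 1, the most abundant transcript, and centring on all genes. Promoters are RefSeq's on GRCm38.p6. The words were chosen as known motifs of cell cycle promoters.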

Additional observations from a re-analysis of the deposited data

How the results depend on the processing

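With an unadjusted p under 0.05 in place of q, 2 members passed for mutant over heterozygote, beside 10.9% of all genes. For knock-in over mutant 3 members passed, beside 14.6% of all genes. By q the counts were 0 and 1, beside 1.34% and 1.67% of all genes. At a q of 0.1, or with the adjustment redone over transcripts of at least 1 or 5 RPKM, the counts stayed at 0 and 1. The members' median log2 ratio ran from 0.069 (most abundant transcript of each gene) to 0.12 in the first comparison and from -0.060 to -0.0010 in the second under the alternatives, among them leaving out Racgap1, which was chosen after seeing the data. For single members the most abundant transcript alone moved 10 ratios of the first and 11 of the second comparison by more than the median error, with 4 and 3 changes of sign; the cause was not tested. For Racgap1 this alternative gives no ratio in the second comparison, as that transcript was listed at 0. Without that transcript, also chosen after seeing the data, its log2 ratio was -0.063 in place of -2.85. Centring on all genes changed 3 signs in the first comparison and 0 in the other. No paired analysis was possible because the tables hold 1 value per group, and for the same reason no sample could be left out.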
